A study of Mus musculus with 10 samples.

Results

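Genes for channels of the muscle fibre membrane and for the beta subunits of the sodium pump were examined in gastrocnemius, a calf muscle, of male mice labelled as having lost myostatin in adulthood. The set named 7 genes: the potassium channel beta subunits Kcnab1 and Kcnab2, the potassium channel Kcnj11, the sodium channel Scn4a, the chloride channel Clcn1, and the sodium pump beta subunits Atp1b1 and Atp1b2. They were selected on their function and on the difference between knockout and control seen earlier in these same arrays, so that difference is given as a description, and a count of calls among them supports nothing. Probe sets (groups of short probes for a transcript) were taken where the platform annotation gave a member's symbol and no other. This found 14 probe sets for 6 of the 7 genes, and Scn4a is not analysed here.

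Every mouse was 7.5 months old, on a C57BL/6 background, and carried the CAGG-CreER transgene, a Cre recombinase that tamoxifen switches on. All received 8 tamoxifen injections from the age of 4 months. The 5 knockout mice had floxed myostatin genes, which the active Cre removes, and the 5 control mice had normal ones, so both groups shared the transgene and the drug. The CAGG promoter is broadly active, so the recombinase was not limited to muscle. Myostatin is a secreted brake on muscle growth that acts through Smad proteins. Its transcript is not analysed here, so these arrays give the genotype labels no check.

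At the sarcolemma, the membrane of a muscle fibre, voltage-gated sodium channels start the action potential, while potassium and chloride channels return the membrane to rest. The sodium pump, a complex of a catalytic alpha and a glycosylated beta subunit, then moves sodium out and potassium in. Chloride conductance through Clcn1 keeps resting muscle electrically quiet, and its loss causes myotonia. Beta subunits of voltage-gated potassium channels belong to the aldo-keto reductase fold and alter how fast the channel pore inactivates.

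Each array gave an intensity per probe set, and log2 of it is the unit of every level below. A probe set was tested where its mean over the 10 arrays was at or above 4. Of the 14 member probe sets, 9 were tested, for Kcnab1, Kcnj11, Clcn1, Atp1b1 and Atp1b2. The other 5 lay under 4, and both Kcnab2 probe sets were among them. The lowest value on an array was between 1.83 and 1.92 and the highest between 16.01 and 16.07. Skeletal muscle markers marked the tissue as labelled: all 10 of them, Ckm and Acta1 included, were above the filter, and their summed linear intensity ran from 276580 to 286828 in control and from 281933 to 296929 in knockout arrays. In a whole muscle, fewer cells of a type and less RNA per cell cannot be told apart.

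In outline, Kcnab1 was 1.89-fold higher in knockout muscle, Atp1b1 was 1.23- to 1.37-fold lower on its 4 tested probe sets, and Kcnj11 was 1.22-fold lower. Clcn1 and Atp1b2 had values near 0 for the difference, with wide intervals on some probe sets. None of the 9 tested probe sets passed an adjusted p of 0.05 (limma, Benjamini-Hochberg over all 21154 probe sets), a threshold that 21 probe sets, or 0.0993%, passed. Kcnab1 probe set 1448468_a_at passed it in 4 of 20 alternative fits, so its call depends on the processing. No other member probe set passed in any of them. Groups did not overlap on 1 member probe set with higher and on 1 with lower knockout values. Over all probe sets tested, 1.17% had knockout values all above and 0.893% all below the controls. The contrast helped to choose the members, so nothing is read from these counts.

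**Figure D1:**
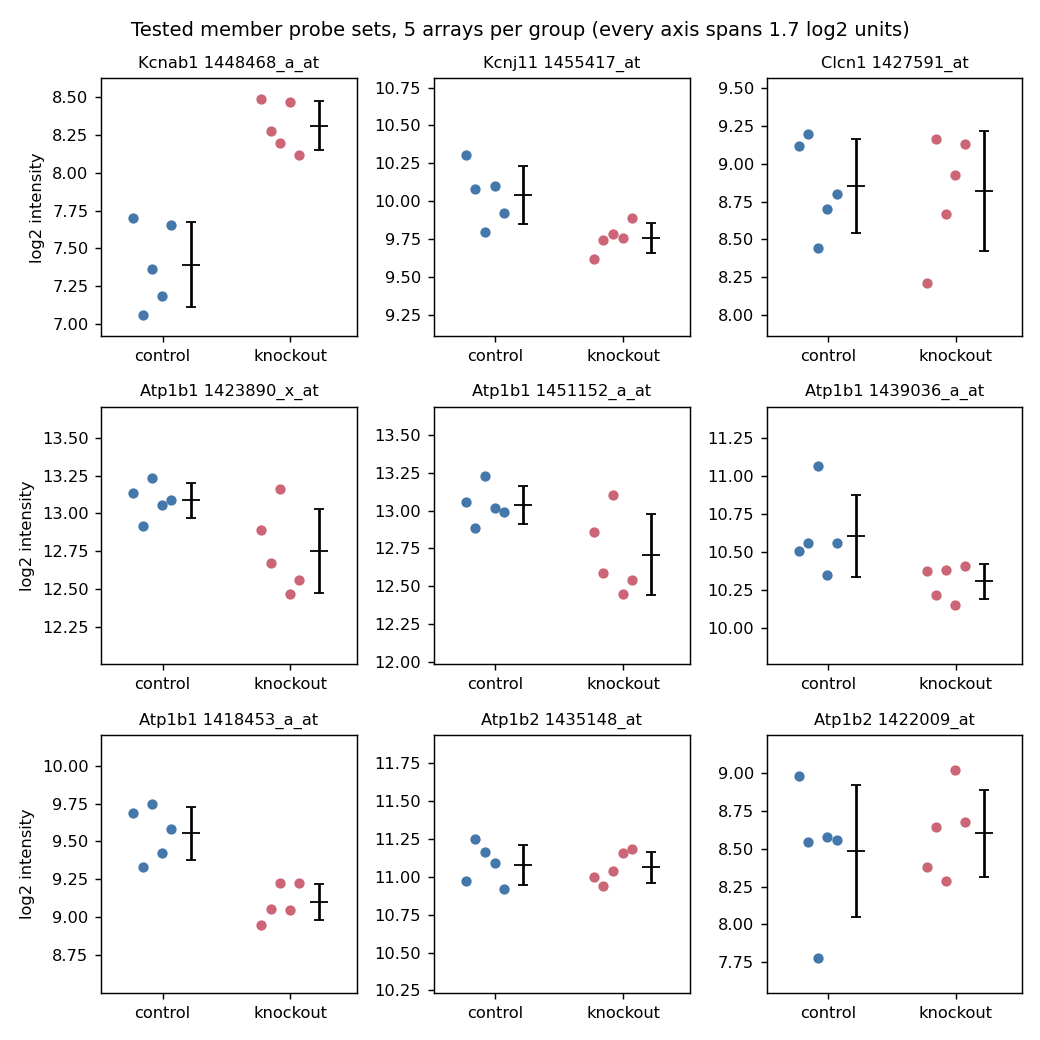
Log2 intensity of the 9 tested member probe sets, 1 panel each, in 5 control (blue) and 5 knockout (red) arrays. Points are arrays, and the black mark and bar beside each group are its mean and SD; the groups are apart for Kcnab1 and for Atp1b1 probe set 1418453_a_at and overlap in the other panels.

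The start regions of Kcnab1 and Atp1b1 are shown because these were the members with a probe set on which the groups did not overlap. Sequences are from RefSeq on build GRCm38.p6, 5′ to 3′ on the gene's strand, from 250 bases before to 50 after an annotated start. Capitals mark CAGAC on either strand (GTCTG where it lies on the other), the core that Smad proteins are known to bind. Kcnab1 has 3 annotated starts on chromosome 3, plus strand, 159802 and 79089 bases apart, and Atp1b1 has 1 window on chromosome 1, minus strand, the chromosome that also carries Mstn.
Kcnab1 start 1, chr3:64948962-64949261: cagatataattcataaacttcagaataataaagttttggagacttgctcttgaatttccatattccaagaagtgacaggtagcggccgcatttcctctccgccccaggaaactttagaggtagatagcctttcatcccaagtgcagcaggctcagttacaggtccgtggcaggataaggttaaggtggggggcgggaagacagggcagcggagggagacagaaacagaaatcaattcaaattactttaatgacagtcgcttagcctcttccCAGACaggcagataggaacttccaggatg
Kcnab1 start 2, chr3:65108764-65109063: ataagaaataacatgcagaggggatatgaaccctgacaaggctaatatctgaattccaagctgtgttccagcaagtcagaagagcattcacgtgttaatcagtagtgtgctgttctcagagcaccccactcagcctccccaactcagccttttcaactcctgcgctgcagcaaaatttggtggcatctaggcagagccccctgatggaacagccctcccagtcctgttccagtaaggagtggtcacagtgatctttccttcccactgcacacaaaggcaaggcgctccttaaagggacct
Kcnab1 start 3, chr3:65187853-65188152: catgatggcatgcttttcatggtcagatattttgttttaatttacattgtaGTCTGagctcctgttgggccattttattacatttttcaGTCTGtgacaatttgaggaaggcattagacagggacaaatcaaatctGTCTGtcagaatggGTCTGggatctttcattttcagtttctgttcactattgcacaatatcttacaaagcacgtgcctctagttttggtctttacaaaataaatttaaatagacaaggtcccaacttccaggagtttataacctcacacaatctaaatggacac
Atp1b1, chr1:164458306-164458605: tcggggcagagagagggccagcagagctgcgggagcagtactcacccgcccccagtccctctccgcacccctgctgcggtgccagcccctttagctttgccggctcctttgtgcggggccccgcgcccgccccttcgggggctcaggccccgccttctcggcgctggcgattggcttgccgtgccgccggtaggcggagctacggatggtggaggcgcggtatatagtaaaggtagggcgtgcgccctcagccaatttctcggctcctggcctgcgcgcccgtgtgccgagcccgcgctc

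The Kcnab1 windows held CAGAC 1, 0 and 4 times and the Atp1b1 window 0 times. CAGAC on either strand occurred at least 1 time in 49.6% of all 32851 windows of this length, so holding it is common. That share does not gauge a count of 4. Among the other members with array values, the Kcnab2 windows held it 0, 4 and 0 times and the Clcn1 window 1 time. The E-box CANNTG, read by muscle transcription factors of the basic helix-loop-helix family, occurred 1 time in each Kcnab1 window and 0 times in the Atp1b1 window, against 72.3% of all windows with at least 1. These motifs too were counted on either strand. CCAAT occurred 2 times in the Atp1b1 window, on opposite strands, and in none of the Kcnab1 windows (37.4% of all windows). TATAAA occurred 1 time, in the Kcnab1 window of start 3 (13.6%). That match lies on the other strand and reads TTTATA in the sequence shown. No CAGAC match overlapped a match of the other motifs. The bases G and C made up 71.0% of the Atp1b1 window and 46.7%, 50.3% and 36.7% of the Kcnab1 windows. Which start the arrays' Kcnab1 probes report was not settled here.

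Kcnab1 (Entrez 16497) encodes a cytoplasmic beta subunit that binds Shaker-type potassium channels. Its probe set 1448468_a_at read 7.70, 7.06, 7.37, 7.18 and 7.65 in control mice 1 to 5 and 8.48, 8.28, 8.20, 8.47 and 8.12 in knockout mice 1 to 5. Every knockout array was above every control array, with a gap between control 1 and knockout 5. Means were 7.39 ± 0.28 and 8.31 ± 0.16 (SD, n = 5 each). The difference was 0.92 ± 0.14 (log2, SE), with a 95% interval from 0.60 to 1.23. The second Kcnab1 probe set, 1454043_a_at, lay between 2.25 and 2.33 on all arrays, close to the lowest values of the arrays, and so gives no second reading.

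Kcnab2 (Entrez 16498), the paralogous beta subunit, was near the floor throughout. Its probe set 1416956_at read 2.22 to 2.24 in controls and 2.22 to 2.25 in knockouts, and 1425885_a_at read 2.21 to 2.27 and 2.21 to 2.23. A change of this gene could not be seen at such a signal, and no fold is given.

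Kcnj11 (Entrez 16514) encodes the pore of the potassium channel that ATP closes, which in muscle ties membrane excitability to the energy state of the fibre. Probe set 1455417_at read 10.30, 10.08, 9.80, 10.10 and 9.92 in controls and 9.62, 9.75, 9.78, 9.76 and 9.89 in knockouts. Control 3 lay among the knockouts and the other 4 controls lay above all of them, so the groups overlapped by 1 array. The difference was -0.28 ± 0.10 (log2, SE; 95% interval -0.51 to -0.06). A dim Kcnj11 probe set, 1450515_at, ranged from 2.58 to 3.30 in controls and 2.56 to 2.81 in knockouts, below the filter.

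Clcn1 (Entrez 12723), the chloride channel of the fibre membrane, had 1 probe set, 1427591_at. It read 9.11, 9.20, 8.44, 8.70 and 8.80 in controls and 8.21, 9.16, 8.67, 8.93 and 9.13 in knockouts. The groups covered nearly the same range, and the lowest array of all was knockout 1. The difference was -0.03 ± 0.21 (log2, SE), and its 95% interval from -0.50 to 0.43 leaves room for a moderate change either way. Without knockout 1 the difference was 0.12, and its sign held in 13 of 20 alternatives, so it has no settled direction.

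Atp1b1 (Entrez 11931) encodes the beta 1 subunit, which carries the catalytic subunit of the pump to the membrane. Probe set 1418453_a_at read 9.69, 9.33, 9.75, 9.43 and 9.58 in controls and 8.95, 9.05, 9.22, 9.05 and 9.22 in knockouts. All knockouts were below all controls, with the nearest arrays control 2 and knockouts 3 and 5. Means were 9.55 ± 0.18 and 9.10 ± 0.12 (SD, n = 5 each), a difference of -0.46 ± 0.10 (log2, SE; 95% interval -0.68 to -0.23), or 1.37-fold lower.

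The brightest Atp1b1 probe set, 1423890_x_at, read 13.13, 12.92, 13.24, 13.05 and 13.09 in controls and 12.89, 12.67, 13.16, 12.47 and 12.56 in knockouts. Only knockout 3 lay among the controls, and the other 4 knockouts lay below each of them. Its difference was -0.34 ± 0.13 (log2, SE; 95% interval -0.63 to -0.04). Probe set 1451152_a_at carries the same accession in the annotation and followed it within 0.01 to 0.10 on every array, so it is no separate reading, and its difference was -0.33 ± 0.13. Probe set 1439036_a_at read 10.50, 10.56, 11.06, 10.34 and 10.56 in controls and 10.37, 10.22, 10.38, 10.15 and 10.41 in knockouts. Here the overlap came from control 4, and control 3 stood above the rest. Its difference was -0.30 ± 0.13, and -0.18 without control 3. A further Atp1b1 probe set, 1455949_at, lay between 2.16 and 2.17 on every array, at the floor.

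Atp1b2 (Entrez 11932) encodes the beta 2 subunit, an isoform found in fast muscle fibres. Its brighter probe set, 1435148_at, read 10.97, 11.25, 11.16, 11.09 and 10.92 in controls and 11.00, 10.94, 11.04, 11.16 and 11.18 in knockouts. The groups covered the same range, and the difference was -0.02 ± 0.08 (log2, SE), with a 95% interval from -0.21 to 0.17. Probe set 1422009_at read 8.98, 8.54, 7.78, 8.58 and 8.55 in controls and 8.38, 8.65, 8.29, 9.02 and 8.67 in knockouts, with control 3 lowest. Its difference of 0.11 ± 0.22 became -0.06 without control 3, so its sign rests on that array. The difference of Atp1b1 from Atp1b2 in response was not tested, since the members were chosen on this contrast.

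**Figure D2:**
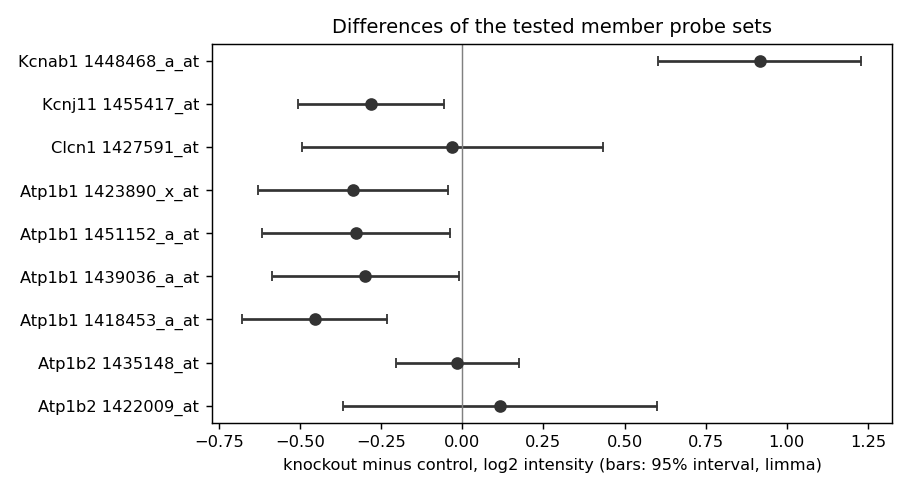
Knockout minus control on the log2 scale for the 9 tested member probe sets; points are estimates and bars their 95% intervals from limma (5 arrays per group). Kcnab1 lies at 0.92, the 4 Atp1b1 probe sets between -0.46 and -0.30, and the intervals of Clcn1 and Atp1b2 include 0.

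The spread within groups differed between members. The SD pooled over both groups was 0.12 for Atp1b2 probe set 1435148_at and 0.15 for Kcnj11 1455417_at and Atp1b1 1418453_a_at, against a median of 0.24 over all probe sets tested. It was 0.23 for Kcnab1, 0.35 for Clcn1 and 0.37 for Atp1b2 1422009_at. Control 3, knockout 1 and knockout 3 had the highest bacterial hybridisation controls (RNA added to each array, 13.34, 13.36 and 13.46, against 12.84 to 13.16 elsewhere). With these controls as a covariate the Kcnj11 difference was -0.27 and the Atp1b1 1418453_a_at difference was -0.46. Without those 3 arrays the values were 0.89 for Kcnab1, -0.30 for Kcnj11 and 0.12 for Clcn1. For Atp1b1 they were -0.40 (1418453_a_at), -0.48 (1423890_x_at), -0.46 (1451152_a_at) and -0.23 (1439036_a_at), so its probe sets moved in both directions.

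**Figure D3:**
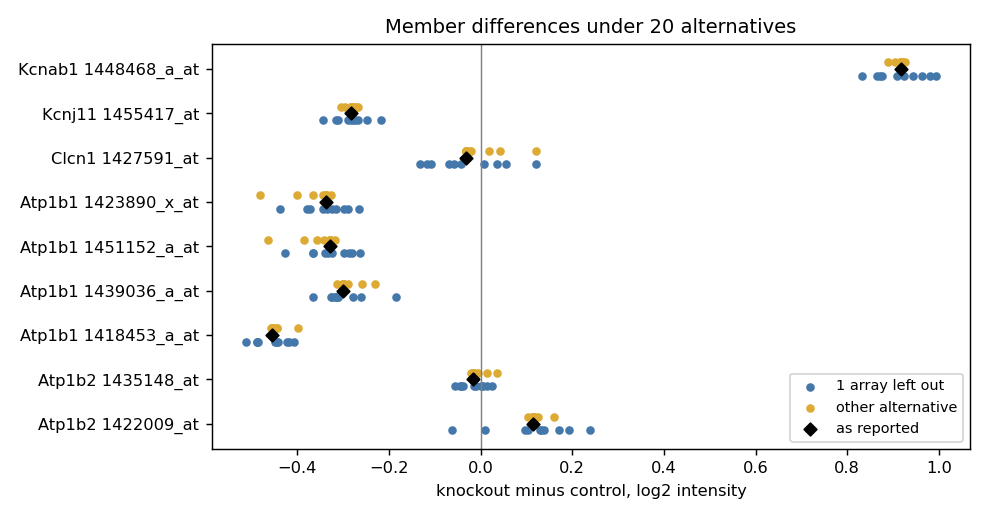
Knockout minus control (log2) for each tested member probe set as reported (black), with 1 array left out (blue) and under the other alternatives (yellow), 20 alternatives in all. Kcnab1 stays between 0.83 and 0.99 and Atp1b1 and Kcnj11 stay below 0, while Clcn1 and both Atp1b2 probe sets cross 0.

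Within groups the members did not vary as a block. After subtracting each group's mean, Pearson's r over the 10 arrays between brightest probe sets was 0.69 for Kcnj11 with Clcn1, -0.67 for Kcnab1 with Atp1b2 and -0.61 for Clcn1 with Atp1b1. It was 0.12 for Kcnab1 with Atp1b1. By the same measure, among 10279 other genes, the gene most like Kcnab1 was Trim56 (r = 0.95), followed by Sdc2 (0.90). The closest to Atp1b1 were Mbtd1 (0.99) and Amn1 (0.97), and to Atp1b2 they were Marchf6 (0.96) and Alas1 (0.94). For Amn1, r was 0.78 over the control arrays alone and 0.99 over the knockout arrays alone. Gba2 (0.98) and Gadd45gip1 (0.97) were closest to Kcnj11, and Mrtfa and Tacc2 (0.99 each) to Clcn1. For Clcn1, 11.7% of genes had r above 0.8, while for Kcnab1 0.117% did. These values come from 10 arrays and carry no p, so they describe likeness only.

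Other genes of these systems were followed through 6 lists with 115 entries, of which 98 had a probe set and 52 had a tested one. None of the 52 passed over all probe sets by adjusted p (limma), whether fitted as stated, with a variance trend and robust fit or with array weights. By the brightest probe set, 9 of 52 (17.3%) had an unadjusted p under 0.05 with lower and 0 with higher knockout values. Over all 10704 genes 5.02% were lower and 3.89% higher by that rule. The median difference over the 52 genes was -0.10 and over all genes -0.0049 (log2), with 33 values below and 19 above 0.

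Among voltage-gated potassium channel pores, the proteins to which beta subunits bind, 0 of 9 tested genes passed and the median difference was -0.17. Kcna7, a Shaker-type channel of muscle, read 9.17 to 9.52 in controls and 8.82 to 9.23 in knockouts. It differed by -0.38 ± 0.11 (adjusted p = 0.393), with the overlap coming from knockout 5. Kcna5, a pore that Kcnab1 is known to bind, differed by -0.01 ± 0.31 (adjusted p = 0.999), and Kcnq5, a slowly activating channel, by -0.34 (adjusted p = 0.636). Kcna5 changed sign with single arrays left out. Of the 9 pores, 6 had lower and 3 had higher knockout means. The latter were Kcnd2 (0.51 ± 0.50), Kcng4 (0.20 ± 0.30) and Kcnc4 (0.08 ± 0.19), named after their values were seen. The 95% intervals of all 3 included 0, and the other tested Kcnc4 probe set gave -0.0066.

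Of 15 potassium channel auxiliary subunits, 3 were tested, 0 passed, and the median was -0.19. Kcnab3, the remaining beta subunit paralogue, was below the filter, with a mean of 2.36. Abcc9 and Abcc8 encode the sulphonylurea receptors, the partners of Kcnj11 in the channel that ATP closes. Abcc9 differed by 0.03 ± 0.14 (adjusted p = 0.991, 95% interval -0.28 to 0.34; -0.03 without control 3 and -0.05 without knockout 4) and Abcc8 by -0.19 ± 0.25 (adjusted p = 0.958). The Abcc8 value, which is also the list median, became 0.05 without knockout 1, so its sign rests on that array. Kcne4, a small modulating subunit, read 5.35 to 7.34 in controls and 5.23 to 5.43 in knockouts, a difference of -0.80 ± 0.31 (adjusted p = 0.581), or -0.50 without control 5, the highest control.

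Among inward rectifier, calcium-activated and two-pore potassium channels 0 of 10 passed, with a median of -0.02. Kcnj8, the other pore of ATP-closed channels and typical of vessel wall cells, differed by -0.22 ± 0.08 (adjusted p = 0.510). Kcnn2, a small-conductance channel opened by calcium, differed by 0.40 ± 0.21 (adjusted p = 0.742), and the inward rectifier Kcnj12 by 0.09 ± 0.08 (adjusted p = 0.873; 0.04 without control 5). Kcnj2, the classical inward rectifier of muscle, was below the filter with a mean of 2.90.

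In the sodium channel list 0 of 10 tested genes passed and the median was -0.08. Scn4b, a beta subunit of sodium channels, was tightly grouped, from 13.17 to 13.27 in controls and 13.12 to 13.28 in knockouts. Its difference of -0.0022 ± 0.06 (adjusted p = 0.999) had a 95% interval from -0.14 to 0.13. Scn7a, an atypical sodium channel found also in Schwann cells, differed by -0.37 ± 0.10 (adjusted p = 0.376), with control values from 9.80 to 10.30 and knockout values from 9.62 to 9.82. Sntb1, a syntrophin of the dystrophin complex, differed by -0.45 ± 0.30 (adjusted p = 0.818), by -0.21 without control 2 and by -0.25 without knockout 1.

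Of the chloride channels and cotransporters 0 of 10 passed, with a median of -0.15. Clcn4 and Clcn5, which exchange chloride for protons on endosomes, differed by -0.22 ± 0.09 (adjusted p = 0.570) and -0.30 ± 0.12 (adjusted p = 0.581). The other tested Clcn4 probe set gave 0.04, so its probe sets disagreed in sign. Of the 10 genes, 7 had lower and 3 had higher knockout means. The latter, named after their values were seen, were Clcn3 (0.12 ± 0.07), Ostm1 (0.12 ± 0.07) and Slc12a2 (0.13 ± 0.07). All 3 of their 95% intervals included 0. Other tested probe sets gave -0.12 to 0.14 for Clcn3 and 0.24 to 0.26 for Slc12a2. Summed linear intensity of the 10 genes ran from 16702 to 17854 in controls and from 17764 to 18613 in knockouts. The list median and the sum thus differed in direction.

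Among sodium pump partners and regulators 0 of 10 passed, with a median of -0.11. Fxyd6, a small membrane protein that modulates the pump, read 11.29, 11.01, 11.56, 10.91 and 11.05 in controls and 10.72, 10.40, 10.60, 10.18 and 10.66 in knockouts. All knockouts were below all controls, and the difference was -0.65 ± 0.15 (adjusted p = 0.234). Fxyd1, phospholemman, the main such regulator in muscle, differed by -0.10 ± 0.06 (adjusted p = 0.776). Atp1b3, the beta 3 subunit, differed by -0.18 ± 0.09 (adjusted p = 0.713) and Atp1b4, a muscle-rich relative of the beta subunits, by 0.14 ± 0.21 (adjusted p = 0.968), or 0.03 without control 5. With 1 array left out, list medians ran from -0.28 to -0.03 for voltage-gated pores, -0.31 to 0.05 for auxiliary subunits, -0.03 to 0.07 for the other potassium channels, -0.20 to -0.10 for chloride channels and -0.15 to -0.03 for the pump list. The sodium channel list ran from -0.26 to -0.0031, without knockout 3 and control 3 in that order.

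**Figure D4:**
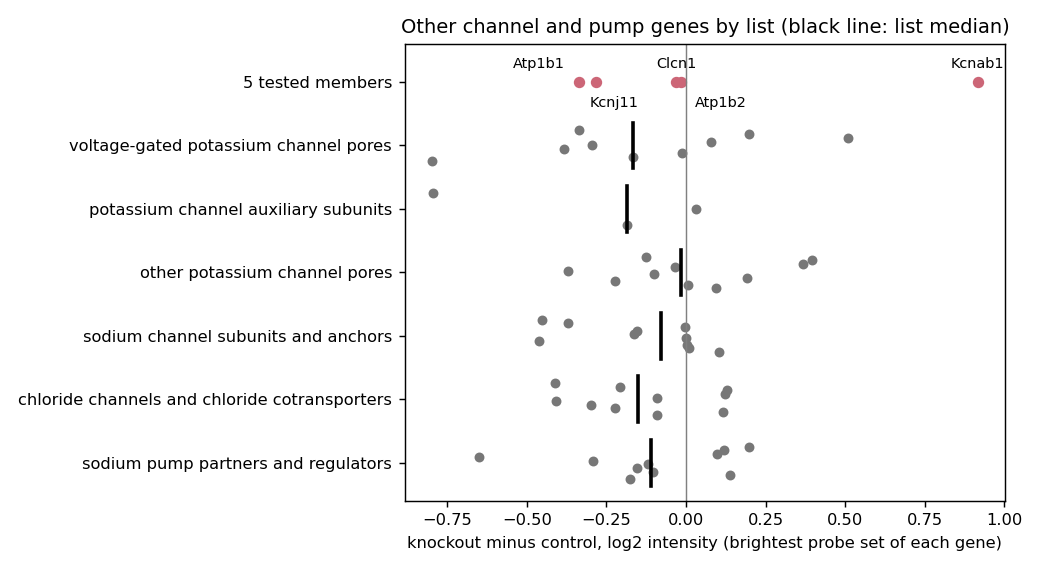
Knockout minus control (log2, brightest probe set of each gene) for the 52 tested genes of 6 lists (grey points, black line at the list median) and the 5 tested members (red, top row). No grey gene passed the threshold; list medians lay between -0.19 and -0.02. The members were chosen on this contrast, and the lists by system with earlier results of these data known. The top row is therefore not ranked against the others.

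Markers of other cells in the muscle had mostly lower knockout means, though by its brightest probe set no marker passed the threshold. By that probe set 51.5% of all genes had a lower knockout mean. Summed linear intensities of endothelial markers ran from 3304 to 3784 in controls and 2855 to 3170 in knockouts (6 of 7 genes with lower knockout means). Those of smooth muscle and pericyte markers ran from 10484 to 12168 and from 9022 to 10302 (6 of 6 lower), with Cnn1 below the filter. The fibroblast sums ran from 18779 to 24216 and from 12997 to 18982 (8 of 8 lower; Col1a1 passed the threshold on a probe set other than its brightest, with an adjusted p of 0.104 on the brightest). Macrophage sums ran from 8375 to 12194 and from 5855 to 10829 (7 of 7 lower). Schwann cell sums ran from 6354 to 9892 and from 5404 to 8935 (4 of 5 lower). Adipocyte sums ran from 16900 to 19485 and from 15440 to 20164 (2 of 3 lower), with Lep below the filter. Slow fibre genes had lower means in 8 of 8, with sums from 95315 to 172815 and from 64826 to 155758. All these counts use the brightest probe set of each gene. Another tested probe set was higher in knockouts for Atp2a2 (by up to 0.10), Myl3 (0.0099), Pdgfra (0.099), Laptm5 (0.24), Rgs5 (0.46) and Fabp4 (0.047). The part of these cells and fibres in the values of Atp1b1, Kcnj11, Kcnj8, Scn7a and Fxyd6 was not tested.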

How the data were processed

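RNA of gastrocnemius from 5 control and 5 knockout mice was hybridised to 1 array each. The deposited values are linear intensity per probe set (45101), made by the authors with GCRMA per the submitters' processing notes; its version is not given in the sources used here. GCRMA holds dim probe sets near a floor and compresses differences there. Log2 was taken here, with no further normalization. Array control probe sets (64) were left out and a mean of 4 or more was required, which kept 21154. The fit of group differences used limma 3.58.1 (lmFit, eBayes, two-sided; R 4.3.3) across all of these, with Benjamini-Hochberg adjustment at 0.05, and the fit was tested on simulated data. The brightest tested probe set stood for a listed gene.

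The members, lists and alternatives were chosen with earlier results of these data known. Named genes are all members, 14 partners fixed by name, the 2 genes of lowest p in each list and the 2 most alike for each member. Some of these partners are not reported here. Symbols came from the platform annotation (34958 probe sets with 1 symbol). Arrays have no read depth, so their number limits the precision. Figures used matplotlib 3.10.9.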

Additional observations from a re-analysis of the deposited data

Results flagged for a closer look

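Among the tested member probe sets and the listed genes named by rule, 54 groups of 5 arrays were looked at. An array far from the rest was held by 2 of these groups, where chance gives about 1 in 20. Abcc8 (probe set 1455765_a_at), a sulphonylurea receptor, stood at a log2 intensity of 4.87 in knockout 1, below the range of 5.85 to 6.13 in the rest of its group. Sntb1 (1438288_x_at), a syntrophin, stood at 10.80 in control 2, above the range of 9.44 to 9.82 in the rest. No member probe set had an array past this rule. Control 3 did stand above the other controls on Atp1b1 1439036_a_at (11.06, against 10.34 to 10.56).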

How the results depend on the processing

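The count of 21 probe sets past the threshold was 11 when dim probe sets were left in, 36 after quantile normalization, 58 with a variance trend and robust fit, 67 with array weights, 99 with the hybridisation control covariate and 5 without the 3 arrays of highest hybridisation controls. Leaving out single arrays gave between 1 and 17. The count of listed channel and pump genes was 0 under all 20 alternatives. A fit with a replicate block left 1 probe set past the threshold. The correlation between deviations of arrays with equal numbers was -0.51, 0.13, 0.62, -0.20 and 0.19. Nothing in the labels says that equal numbers pair mice, and these correlations do not settle it. The causes of these changes in the count were not tested. Each member difference moved by less than its within-group SD in all 20 alternatives. Leaving out 1 array gave 0.83 to 0.99 for Kcnab1, -0.34 to -0.22 for Kcnj11, -0.13 to 0.12 for Clcn1, and for Atp1b1 -0.44 to -0.27 (1423890_x_at), -0.43 to -0.26 (1451152_a_at), -0.36 to -0.18 (1439036_a_at) and -0.51 to -0.41 (1418453_a_at). For Atp1b2 it gave -0.06 to 0.03 (1435148_at) and -0.06 to 0.24 (1422009_at). Signal near the floor limits Kcnab2 and the dim probe sets of Kcnab1, Kcnj11 and Atp1b1.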
